A study of Mus musculus with 9 samples.

Results

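Wnt pathway genes were read in vehicle-treated 3T3-L1 pre-adipocytes and after 6 h of adipogenic stimulation, with a scrambled siRNA or one against CD24. The members were chosen by gene symbol: the Wnt ligands, the Frizzled, Sfrp, Dkk and R-spondin families, and the named co-receptors, cytoplasmic regulators and TCF/LEF factors of the pathway. That choice was made with earlier results of these data known. Of the 22180 genes with a probe set of their own, 57 were members. Tcf7, the 1 further gene asked for, had no probe set of its own here. Each gene was represented by its brightest probe set, judged by the mean of all 9 arrays. A gene was tested when at least 3 of its 9 values reached 6.51, the median of the whole table on the log2 scale, and 35 members passed that filter, as did 12630 genes in all.

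3T3-L1 is a mouse fibroblast line that becomes fat-storing when its confluent, growth-arrested cells receive a hormone mixture. The series holds 3 groups of 3 single-colour arrays of total RNA. The first was treated with vehicle, the second with IBMX at 0.5 mM and dexamethasone (Dex) at 1 µM for 6 h after a scrambled control siRNA, and the third with the same IBMX/Dex after an siRNA against CD24. IBMX blocks phosphodiesterases and so raises cAMP, and Dex is a synthetic glucocorticoid. All cells were of 1 line, grown in 12-well plates, and were held for 48 h after confluence. Whether the vehicle cells received any siRNA is not stated in the labels, so transfection and IBMX/Dex cannot be told apart in the comparisons with vehicle. Nor do they say how long the vehicle was applied, or that the replicates came from separate cultures. The p-values therefore reflect how far these samples spread, and that spread may be technical. In bulk RNA, fewer cells of a type and less RNA per cell cannot be told apart.

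Wnt proteins are secreted, lipid-bearing signals that bind Frizzled receptors together with the co-receptors Lrp5 and Lrp6. In the canonical branch this stops a complex of Axin, Apc and Gsk3b from marking beta-catenin (Ctnnb1) for destruction, and beta-catenin then joins TCF/LEF factors on target genes. In pre-adipocytes canonical Wnt signalling is known as a brake on fat cell formation, with Wnt10b as its best described ligand. A separate non-canonical branch, typically driven by Wnt5a through receptors such as Ror1 and Ror2, acts without beta-catenin.

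Against vehicle, IBMX/Dex with scrambled siRNA was accompanied by a rise of the receptor genes Fzd3 (1.65-fold) and Fzd4 (1.53-fold) and a fall of the transcription factor gene Lef1 (2.03-fold lower). These 3 of 35 tested members (8.57%) passed an adjusted p of 0.05 in limma, beside 6.94% of all genes tested (3.33% higher and 3.6% lower), so the share among members was close to the background. Same-numbered arrays of the 3 groups deviated together, and with the replicate number as a block 11 members passed: 7 rose and 4 fell, or 31.4% beside a background of 23.3% (11.9% higher and 11.4% lower). With CD24 siRNA and IBMX/Dex, set against the same vehicle arrays, Fzd3 (1.69-fold) again rose and Lef1 (2.11-fold) fell. These 2 members made 5.71% beside 6.65% of all genes (2.92% higher and 3.73% lower). With the block 10 members passed, 6 higher and 4 lower, or 28.6% beside 22.4% (10.4% higher and 12.1% lower). Between CD24 siRNA and scrambled siRNA no member passed, with or without the block, and the background there was 0% of genes.

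Promoter stretches of 4 members that moved are printed here because the receptors Fzd4 and Fzd7 were higher and the TCF/LEF factors Lef1 and Tcf7l2 lower on the IBMX/Dex arrays than on vehicle arrays of the same number. Each holds the 250 bases before a transcript start in RefSeq, build GRCm38.p6, written 5′ to 3′ in the direction of the gene. For Lef1, with 4 listed starts, and Tcf7l2, with 2, the start with the lowest coordinate was taken. Capitals mark every CG dinucleotide.
Fzd4, chr7:89404116-89404365, plus strand: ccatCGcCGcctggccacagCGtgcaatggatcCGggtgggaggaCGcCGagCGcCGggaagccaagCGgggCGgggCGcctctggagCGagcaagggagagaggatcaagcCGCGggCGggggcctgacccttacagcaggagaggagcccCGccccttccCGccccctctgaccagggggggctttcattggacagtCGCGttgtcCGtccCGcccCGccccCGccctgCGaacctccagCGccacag
Fzd7, chr1:59481897-59482146, plus strand: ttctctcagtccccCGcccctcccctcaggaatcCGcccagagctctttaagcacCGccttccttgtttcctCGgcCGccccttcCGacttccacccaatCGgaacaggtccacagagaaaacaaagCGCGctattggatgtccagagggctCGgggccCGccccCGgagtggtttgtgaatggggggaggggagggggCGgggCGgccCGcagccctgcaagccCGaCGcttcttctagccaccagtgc
Lef1, chr3:131110047-131110296, plus strand: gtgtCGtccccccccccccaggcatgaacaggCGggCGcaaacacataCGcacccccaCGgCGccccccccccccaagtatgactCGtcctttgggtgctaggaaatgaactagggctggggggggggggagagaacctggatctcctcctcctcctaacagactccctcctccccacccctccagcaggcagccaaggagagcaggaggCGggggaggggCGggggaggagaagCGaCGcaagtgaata
Tcf7l2, chr19:55741560-55741809, plus strand: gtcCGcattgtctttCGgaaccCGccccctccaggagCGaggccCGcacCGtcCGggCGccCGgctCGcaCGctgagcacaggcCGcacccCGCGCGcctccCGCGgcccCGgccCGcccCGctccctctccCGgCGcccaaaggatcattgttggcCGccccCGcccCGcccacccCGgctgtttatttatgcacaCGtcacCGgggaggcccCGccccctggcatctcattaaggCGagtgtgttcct
Fzd4 held 25 CG dinucleotides, Fzd7 17, Lef1 11 and Tcf7l2 30, where the median over all 32851 RefSeq windows of this length was 6. At least as many were found in 10.7%, 23.5%, 35.6% and 5.94% of all windows, respectively. Motifs were searched on both strands of such windows, which were available for 39 members. The cAMP response element TGACGTCA was in none of the 47 member windows and in 1.55% of all windows. AGAACA, a hexamer of the glucocorticoid response element, was in 7 of the 47 member windows, from 6 members including Lef1 and Tcf7l2, against 16.1% of all windows; the stretches printed above do not hold it. The TCF/LEF motif CTTTGAT was in windows of Wnt11 and Wnt5b (3.21% of all windows) and its variant CTTTGAA in that of Dkk1 (4.46%). A match is a description of the letters in the window, not a bound site.

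The siRNA target itself was checked on its 2 probe sets. On the brighter one, Cd24a stood at 8.88, 9.92 and 9.49 with vehicle, at 11.19, 11.73 and 11.81 with scrambled siRNA and IBMX/Dex, and at 10.15, 10.16 and 11.72 with CD24 siRNA and IBMX/Dex (log2 expression, replicates 1, 2 and 3). The third CD24 siRNA array thus differed from its scrambled partner by -0.10 log2 units, where the first and second differed by -1.04 and -1.57, and the other probe set gave differences of -2.05, -2.03 and -0.18. The library labelled CD24 siRNA replicate 3 therefore went against its label, and the values below that rest on it are read with that in view. Array medians lay between 6.47 and 6.56, and arrays of a group correlated at 0.963 to 0.990 across probe sets. Of 9 named pre-adipocyte and fibroblast markers 8 passed the filter, among them Pdgfra, Dlk1 and Col1a1. The mean of that list was 10.30 to 10.49 on the vehicle arrays and 9.99 to 10.09 on the IBMX/Dex arrays, and its part in the results was not tested. Its members went both ways: for vehicle, scrambled siRNA and CD24 siRNA, group means were 11.96, 10.92 and 10.85 for Pdgfra and 11.49, 9.83 and 9.88 for Pdgfrb, but 12.03, 12.51 and 12.51 for Fstl1 and 10.99, 11.23 and 11.16 for Thy1. Among mature adipocyte markers Fabp4 passed and Adipoq, Plin1, Lep and Cidec did not, with list means of 6.43 to 6.74 with vehicle, 6.34 to 6.76 with scrambled siRNA and 6.31 to 6.74 with CD24 siRNA. Above the filter were also 2 of 5 macrophage, 1 of 4 endothelial, 2 of 5 epithelial, 4 of 4 skeletal muscle and 1 of 5 osteoblast and chondrocyte markers, while Ptprc, Epcam and Pecam1 lay below it. Of the muscle markers, Des had group means of 8.08, 7.38 and 7.37.

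The ligands came first. Of 19 Wnt genes 9 were tested, none passed without the block, and 2 rose with it in each comparison with vehicle (22.2%, close to the 23.3% and 22.4% of all genes). Wnt4, a ligand able to signal through either branch, stood at 7.77, 7.63 and 7.12 with vehicle, 8.38, 8.31 and 7.30 with scrambled siRNA, and 8.34, 7.96 and 7.65 with CD24 siRNA. Replicate 3 was the lowest array of every group, so the groups overlapped although all 6 same-numbered differences from vehicle were positive. The log2 difference from vehicle was 0.49 ± 0.31 (SE) with scrambled siRNA (limma adjusted p = 0.393, and 0.0262 with the replicate block) and 0.48 ± 0.31 (SE) with CD24 siRNA (limma adjusted p = 0.412, and 0.0301 with the block). Each SE and 95% interval in the text is from the fit without the block, unless it is itself given as with the block. For Wnt4 the SE with the block was 0.13 in both comparisons. The blocked calls were lost without replicate 1 or 2 of the scrambled or vehicle group in the first comparison, and without vehicle replicate 1 or 2 or CD24 siRNA replicate 1 or 3 in the second (adjusted p up to 0.133 and 0.134). Without the block, leaving out 1 array moved the difference between 0.30 (without vehicle replicate 3 or scrambled replicate 1) and 0.84 (without scrambled replicate 3) with scrambled siRNA, and between 0.29 and 0.64 with CD24 siRNA.

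Wnt5a, the archetypal non-canonical ligand, stood at 7.05, 6.33 and 7.40 with vehicle, 7.57, 7.12 and 7.82 with scrambled siRNA, and 7.45, 6.96 and 7.57 with CD24 siRNA. Here replicate 2 was the lowest array in all 3 groups, and the groups overlapped. Pairs 1, 2 and 3 differed from vehicle by 0.53, 0.79 and 0.41 with scrambled siRNA and by 0.40, 0.63 and 0.16 with CD24 siRNA. With the block the rise passed in limma in both comparisons (adjusted p = 0.00567 and 0.0289), and without it in neither (adjusted p = 0.279 and 0.477). The blocked call with CD24 siRNA was lost without scrambled replicate 3, vehicle replicate 1 or 2, or CD24 siRNA replicate 1 or 2 (adjusted p up to 0.149). Unblocked, leaving out 1 array gave differences of 0.28 to 0.82 with scrambled siRNA and 0.10 to 0.64 with CD24 siRNA, the lowest without vehicle replicate 2 and the highest without vehicle replicate 3. Of the other tested ligands Wnt10a, which belongs to the canonical anti-adipogenic ligands, had group means of 7.20 with vehicle, 7.16 with scrambled siRNA and 7.15 with CD24 siRNA, and did not pass. Its 3 CD24 siRNA arrays, vehicle replicate 2 and scrambled replicate 3 all held the same value. Wnt9b did not pass either, but its vehicle arrays lay under all 6 IBMX/Dex arrays.

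Several ligands with a known part in adipogenesis could not be judged, because they lay below the filter. Wnt10b lay between 5.87 and 6.27 on the 9 arrays and Wnt6 between 6.10 and 6.72. In a fit without any filter their log2 differences from vehicle with scrambled siRNA were 0.06 ± 0.12 (SE) and -0.25 ± 0.13 (SE), with limma adjusted p = 0.878 and 0.399. The same held for Wnt1, Wnt2, Wnt3, Wnt3a, Wnt7b, Wnt8a, Wnt8b and Wnt16. RMA compresses differences at such levels, so a change of these genes was not detectable here rather than absent.

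R-spondins strengthen Wnt signals by keeping Frizzled receptors at the cell surface. Rspo2 stood at 7.08, 7.39 and 6.66 with vehicle, 6.50, 6.58 and 6.32 with scrambled siRNA, and 6.56, 6.74 and 6.66 with CD24 siRNA. All 3 scrambled arrays lay under all 3 vehicle arrays, whereas the CD24 siRNA group overlapped with vehicle: its replicate 3, the array that went against its label, equalled vehicle replicate 3 in the deposited value. The log2 difference from vehicle was -0.57 ± 0.17 (SE, and 0.13 with the block) with scrambled siRNA. It passed in limma with the block only (adjusted p = 0.0117, and 0.0847 without it). That blocked call was lost without scrambled replicate 2 or vehicle replicate 1 (adjusted p up to 0.0595). With CD24 siRNA it was -0.39 ± 0.17 (SE; limma adjusted p = 0.228, and 0.0561 with the block). Single arrays decided that call: with the block Rspo2 passed without CD24 siRNA replicate 3, the array at odds with its label (log2 difference -0.53, adjusted p = 0.0315), and without vehicle replicate 3 (-0.55, adjusted p = 0.0140). Rspo1 did not pass, and Rspo3 and Rspo4 lay below the filter.

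No secreted inhibitor passed in any comparison. Of 10 such genes 4 were tested, and the range of their differences from vehicle was -0.28 to 0.04 with scrambled siRNA and -0.41 to 0.04 with CD24 siRNA. Sfrp2, which encodes a secreted Frizzled-like protein that can bind Wnts, had the widest array-to-array range among them. It stood at 8.56, 8.14 and 9.15 with vehicle, 8.64, 7.75 and 8.62 with scrambled siRNA, and 8.33, 7.49 and 8.79 with CD24 siRNA. Replicate 2 was the lowest array of each group, and the groups overlapped throughout. The Wnt-binding inhibitor Wif1 and the Dickkopf genes Dkk3 and Dkk4 were tested as well. Dkk1 and Sfrp1, inhibitors described as easing adipogenesis, lay below the filter, at 6.00 to 6.36 and 6.04 to 6.55, as did Dkk2, Sfrp4, Sfrp5 and Frzb.

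The Frizzled receptors split in direction. Of 8 tested, Fzd3 and Fzd4 rose with scrambled siRNA and IBMX/Dex, and with the block Fzd7 rose and Fzd2 fell as well (25% without the block and 50% with it, beside 6.94% and 23.3% of all genes). The median difference of the 8 was 0.33, beside 0.02 over all genes tested. Fzd3, a receptor best known from axon guidance and planar cell polarity, stood at 6.98, 7.02 and 6.65 with vehicle, 7.68, 7.71 and 7.43 with scrambled siRNA, and 7.88, 7.69 and 7.35 with CD24 siRNA. Every IBMX/Dex array lay above every vehicle array, and within each group replicate 3 was the lowest. Its log2 difference from vehicle was 0.72 ± 0.17 (SE, limma adjusted p = 0.0342, and 0.00102 with the block) with scrambled siRNA and 0.76 ± 0.17 (SE, limma adjusted p = 0.0299, and 0.000847 with the block) with CD24 siRNA.

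Fzd4, which besides Wnts binds norrin, stood at 6.74, 6.61 and 6.70 with vehicle, 7.28, 7.02 and 7.59 with scrambled siRNA, and 7.23, 7.05 and 7.34 with CD24 siRNA. The vehicle arrays lay close together (SD 0.06) and below all 6 others. The difference with scrambled siRNA was 0.61 ± 0.15 (SE, limma adjusted p = 0.0434, and 0.00402 with the block). With CD24 siRNA it was 0.52 ± 0.15 (SE) and passed with the block alone (adjusted p = 0.00892, and 0.0751 without it). The unblocked calls were fragile. Fzd3 with scrambled siRNA passed in 2 of 9 fits that each left out 1 array (without CD24 siRNA replicate 1 or 3), with adjusted p up to 0.106, and Fzd4 passed in 1 (without scrambled replicate 2), with adjusted p up to 0.133. Fzd3 with CD24 siRNA was lost without vehicle replicate 3 or CD24 siRNA replicate 1 or 2 (adjusted p = 0.0921, 0.0992 and 0.0977). With the block, Fzd3 and Fzd4 passed in 9 of 9 such fits in both comparisons.

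Fzd7, a receptor of both branches, stood at 8.81, 8.03 and 8.22 with vehicle, 9.43, 8.81 and 8.92 with scrambled siRNA, and 9.21, 8.80 and 8.85 with CD24 siRNA. Replicate 1 was the highest in each group, and vehicle replicate 1 lay above the lowest IBMX/Dex arrays, so the groups overlapped. The same-numbered differences of 0.61, 0.77 and 0.70 with scrambled siRNA were nearly equal. The gene rose with the block in both comparisons with vehicle (limma adjusted p = 0.00139 and 0.00316) and did not pass without it (adjusted p = 0.117 and 0.173).

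Fzd2 and Fzd8 ran the other way. Fzd2, a receptor that also transmits Wnt5a signals, stood at 9.51, 8.35 and 8.81 with vehicle, 8.45, 8.29 and 8.07 with scrambled siRNA, and 8.50, 8.09 and 7.66 with CD24 siRNA. Replicate 2 differed least, by -0.06 and -0.26, against -1.06 and -1.01 for replicate 1 and -0.73 and -1.15 for replicate 3. With the block Fzd2 fell in limma (adjusted p = 0.0358 with scrambled siRNA and 0.0122 with CD24 siRNA; without it 0.260 and 0.147). The blocked calls were lost without either member of pair 1 or 3 with scrambled siRNA, also without CD24 siRNA replicate 1, and without vehicle replicate 1 or 3 or CD24 siRNA replicate 3 with CD24 siRNA (adjusted p up to 0.169 and 0.0649). Unblocked, leaving out 1 array gave -0.89 to -0.31 with scrambled siRNA and -1.08 to -0.50 with CD24 siRNA, the smallest size without vehicle replicate 1.

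Fzd8 stood at 8.23, 7.64 and 7.59 with vehicle, 7.55, 7.49 and 7.32 with scrambled siRNA, and 7.59, 7.43 and 7.07 with CD24 siRNA. All vehicle arrays lay above the IBMX/Dex arrays, although vehicle replicate 3 and CD24 siRNA replicate 1 both round to 7.59. Its difference was -0.46 ± 0.20 with CD24 siRNA and -0.37 ± 0.20 with scrambled siRNA (SE, and 0.12 with the block in both). With the block it passed with CD24 siRNA (limma adjusted p = 0.0239, and 0.207 without the block). With scrambled siRNA it did not (adjusted p = 0.0523 with the block). The blocked call was lost without vehicle replicate 1 or 3 or CD24 siRNA replicate 1 or 3 (adjusted p up to 0.110). Without vehicle replicate 1 the unblocked difference was -0.16 with scrambled siRNA and -0.25 with CD24 siRNA. Whether the 2 siRNA groups differ is answered by their direct comparison, given further on. Fzd1 (group means 9.79 with vehicle, 10.24 with scrambled siRNA and 10.28 with CD24 siRNA), Fzd5 (7.36, 7.24 and 7.16) and Fzd9 (7.07, 7.28 and 7.23) did not pass. Fzd6 and Fzd10 lay below the filter.

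**Figure D1:**
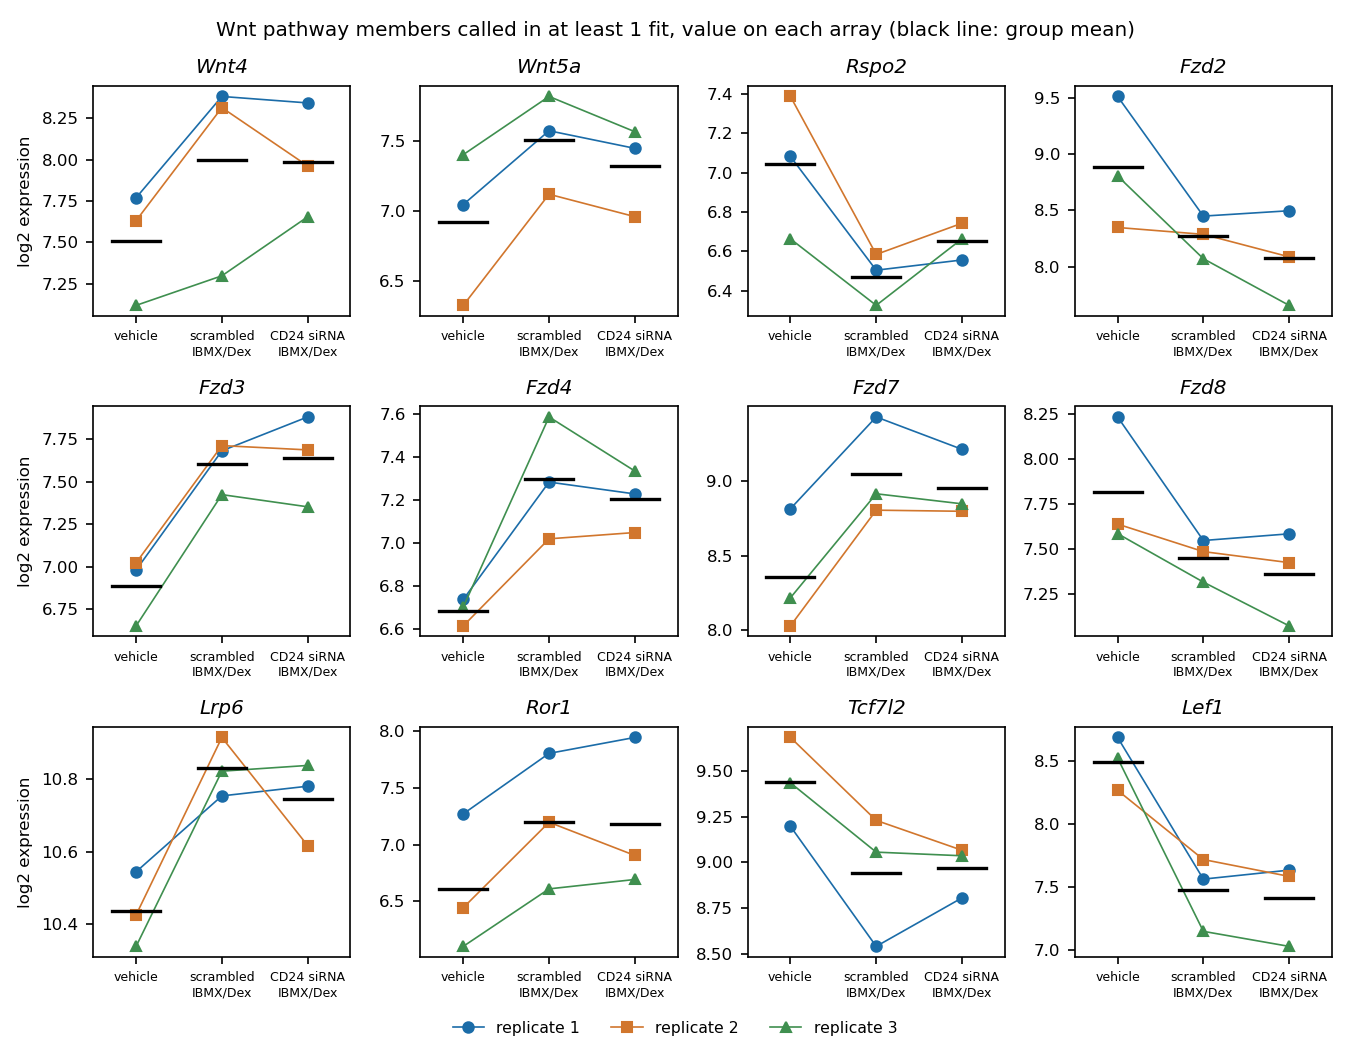
Log2 expression (y axis, a separate scale for each gene) of the 12 members called in at least 1 comparison with vehicle, with or without the replicate block, in the 3 groups (x axis); points are single arrays, coloured lines join arrays of the same replicate number and black bars are group means of 3 arrays. Fzd3, Fzd4 and Lef1 show vehicle arrays apart from all IBMX/Dex arrays, while for Ror1 the replicate lines run side by side at different heights.

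Among the co-receptors, all 4 differences from vehicle were positive in both comparisons, and none passed without the block. Over all 12630 genes tested, 6743 were positive with scrambled siRNA and 6671 with CD24 siRNA. For Lrp5 the differences were 0.06 and 0.04, each with an SE of 0.20. Lrp6, which pairs with Frizzled in the canonical branch, stood at 10.54, 10.43 and 10.34 with vehicle, 10.75, 10.91 and 10.82 with scrambled siRNA, and 10.78, 10.62 and 10.84 with CD24 siRNA. The vehicle arrays lay below the other 6. With scrambled siRNA the difference of 0.39 ± 0.11 (SE) passed with the block (limma adjusted p = 0.0269, and 0.0619 without it), a call lost without scrambled replicate 2 or 3 or vehicle replicate 2 or 3 (adjusted p up to 0.137). With CD24 siRNA it was 0.31 ± 0.11 (SE; adjusted p = 0.128, and 0.0681 with the block). A second, dimmer Lrp6 probe set gave 0.20 with scrambled siRNA and -0.02 with CD24 siRNA, so the probe sets differed in the latter comparison.

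Ror1, a receptor-like kinase that binds Wnt5a, stood at 7.27, 6.44 and 6.10 with vehicle, 7.80, 7.20 and 6.61 with scrambled siRNA, and 7.94, 6.90 and 6.69 with CD24 siRNA. The order replicate 1 over 2 over 3 was the same in each group, and the distance between numbers (means of 7.67, 6.85 and 6.47) exceeded that between groups. Same-numbered differences from vehicle were 0.53, 0.75 and 0.51 with scrambled siRNA and 0.67, 0.46 and 0.59 with CD24 siRNA. Ror1 rose with the block (limma adjusted p = 0.00423 and 0.00536) and did not pass without it (adjusted p = 0.454 and 0.480); with the block it passed in 9 of 9 fits that each left out 1 array, in both comparisons. The unblocked difference moved between 0.30 and 0.93 with scrambled siRNA and between 0.19 and 0.91 with CD24 siRNA in such fits. Ror2 had group means of 6.97, 7.03 and 7.18 and Lrp5 of 9.68, 9.74 and 9.71 for vehicle, scrambled siRNA and CD24 siRNA, and neither passed.

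Of the 7 cytoplasmic regulators among the members 5 were tested, and none passed in either comparison, with or without the block. Their differences from vehicle lay between -0.10 and 0.05 with scrambled siRNA and between -0.13 and 0.06 with CD24 siRNA. Ctnnb1, beta-catenin, had group means of 11.41 ± 0.22, 11.33 ± 0.01 and 11.31 ± 0.03 (SD, n = 3) for vehicle, scrambled siRNA and CD24 siRNA. The corresponding means were 10.95, 10.86 and 10.93 for Gsk3b, the kinase of the destruction complex, 8.97, 8.90 and 8.96 for its scaffold Apc, and 9.63, 9.52 and 9.50 for Axin1. For Ctnnb1, scrambled replicates 1 and 3 and CD24 siRNA replicate 1 all stood at 11.3311, so its small SDs rest in part on equal values. Axin2, a feedback inhibitor widely used as a readout of canonical signalling, lay near the filter, at 6.44 to 6.71 over the 9 arrays. Its difference from vehicle was 0.05 (95% interval -0.20 to 0.29) with scrambled siRNA and 0.06 (-0.18 to 0.31) with CD24 siRNA. A second, dimmer Axin2 probe set gave larger differences of 0.22 ± 0.12 (SE) and 0.12 ± 0.12 (SE). These are messenger RNA levels and say nothing of the stability of beta-catenin protein. The feedback inhibitor genes Nkd1 and Nkd2 lay below the filter.

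All 3 TCF/LEF factors with a probe set of their own had negative differences in both comparisons, with medians of -0.50 and -0.47 beside 0.02 and 0.02 over all genes. The smallest in size was Tcf7l1 with CD24 siRNA, at -0.10 (95% interval -0.43 to 0.22). Lef1, a DNA-binding partner of beta-catenin, stood at 8.69, 8.27 and 8.52 with vehicle, 7.56, 7.72 and 7.14 with scrambled siRNA, and 7.63, 7.58 and 7.03 with CD24 siRNA. No IBMX/Dex array reached the lowest vehicle array, and replicate 3 was the lowest of both treated groups. Its log2 difference was -1.02 ± 0.21 (SE, limma adjusted p = 0.0224, and 0.00195 with the block) with scrambled siRNA and -1.08 ± 0.21 (SE, limma adjusted p = 0.0188, and 0.00161 with the block) with CD24 siRNA. Without the block, the call with scrambled siRNA was lost without scrambled replicate 1 or 3 or vehicle replicate 1 or 3 (adjusted p = 0.0523, 0.0824, 0.0535 and 0.0676). That with CD24 siRNA was lost without vehicle replicate 3 (adjusted p = 0.0609) or the doubtful CD24 siRNA replicate 3 (log2 difference -0.89, adjusted p = 0.0587). With the block Lef1 passed in 9 of 9 such fits in both comparisons.

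Tcf7l2, the TCF factor associated with adipocyte differentiation and diabetes risk, stood at 9.20, 9.68 and 9.44 with vehicle, 8.54, 9.23 and 9.06 with scrambled siRNA, and 8.81, 9.07 and 9.04 with CD24 siRNA. Replicate 1 was the lowest array of each group, and vehicle replicate 1 lay under scrambled replicate 2. With the block Tcf7l2 fell in both comparisons (log2 difference -0.50, limma adjusted p = 0.00985; and -0.47, adjusted p = 0.0130), while without it the adjusted p was 0.169 and 0.194. The blocked call with CD24 siRNA was lost without vehicle replicate 1 or CD24 siRNA replicate 2 (adjusted p up to 0.0885). Tcf7l1, mostly a repressor, had group means of 10.60, 10.37 and 10.50 for vehicle, scrambled siRNA and CD24 siRNA, and did not pass.

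**Figure D2:**
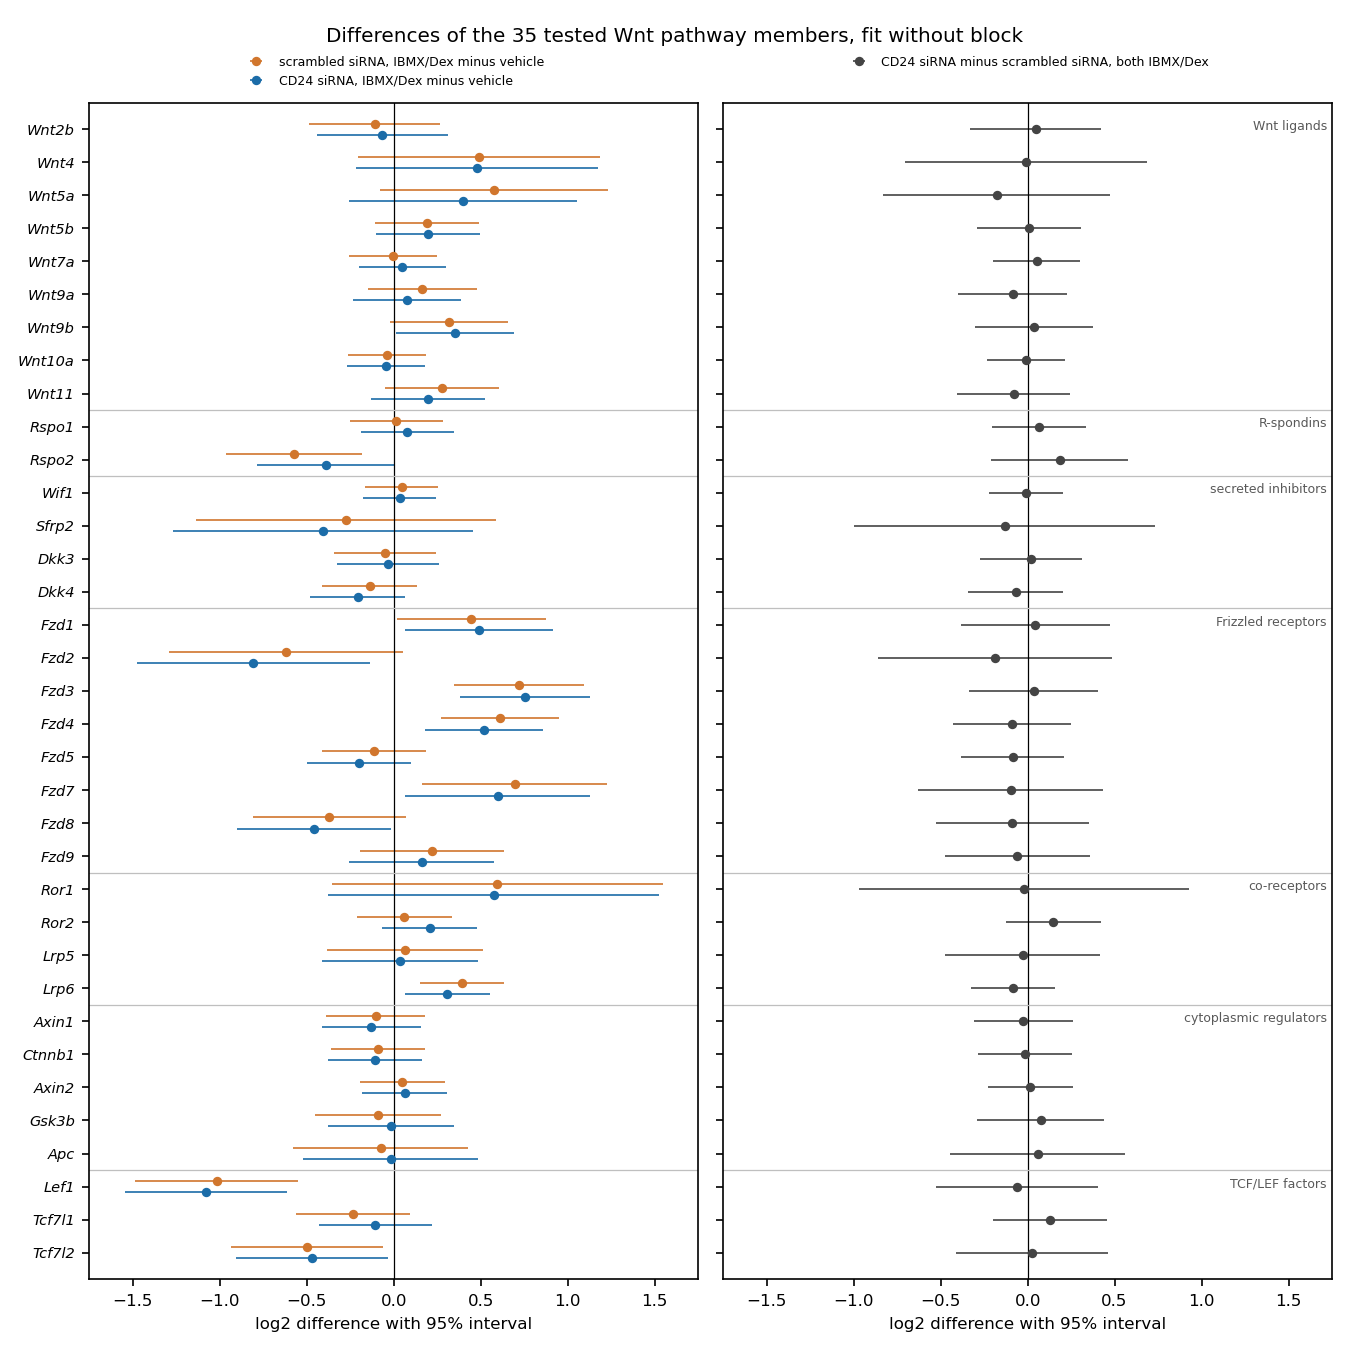
Log2 differences (x axis) with 95% limma intervals for the 35 tested members (y axis, grouped by role), fitted without the block; the left panel sets each siRNA group with IBMX/Dex against the shared vehicle arrays and the right panel sets CD24 siRNA against scrambled siRNA. Lef1 lies farthest to the left and Fzd3 farthest to the right among the called members, and every interval in the right panel includes 0.

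The members as a whole did not shift to one side. With scrambled siRNA 18 differences were positive and 17 negative, with a median of 0.01 beside 0.02 over all genes, and with CD24 siRNA 19 were positive and 16 negative (median 0.04, beside 0.02). Vehicle and scrambled arrays did not overlap for 7 members (4 higher and 3 lower), against 25.2% of all genes tested (12.8% higher and 12.4% lower). Vehicle and CD24 siRNA arrays did not overlap for 8 (5 higher and 3 lower; 22.9%), against 25.8% (12.1% higher and 13.7% lower). By that count the family was not set apart from other genes. None of the 22 members below the filter passed in a fit without a filter (limma, with or without the block), and their largest difference from vehicle was 0.30 log2 units in size.

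Spread over replicate numbers was set beside spread over groups. For 19 of the 35 tested members the means of the 3 numbers ranged more widely than the means of the 3 groups. That count lies near an even split, and the share over all genes tested was not worked out. For Ror1 the range was 1.20 log2 units over numbers and 0.60 over groups, for Sfrp2 1.06 and 0.41, and for Wnt4 0.81 and 0.49. Lef1 (0.40 over numbers and 1.08 over groups), Fzd3 (0.37 and 0.76), Fzd4 (0.31 and 0.61) and Lrp6 (0.04 and 0.39) showed the reverse. The labels do not say what the number stands for, and its part in these differences was not tested beyond the blocked fit.

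**Figure D3:**
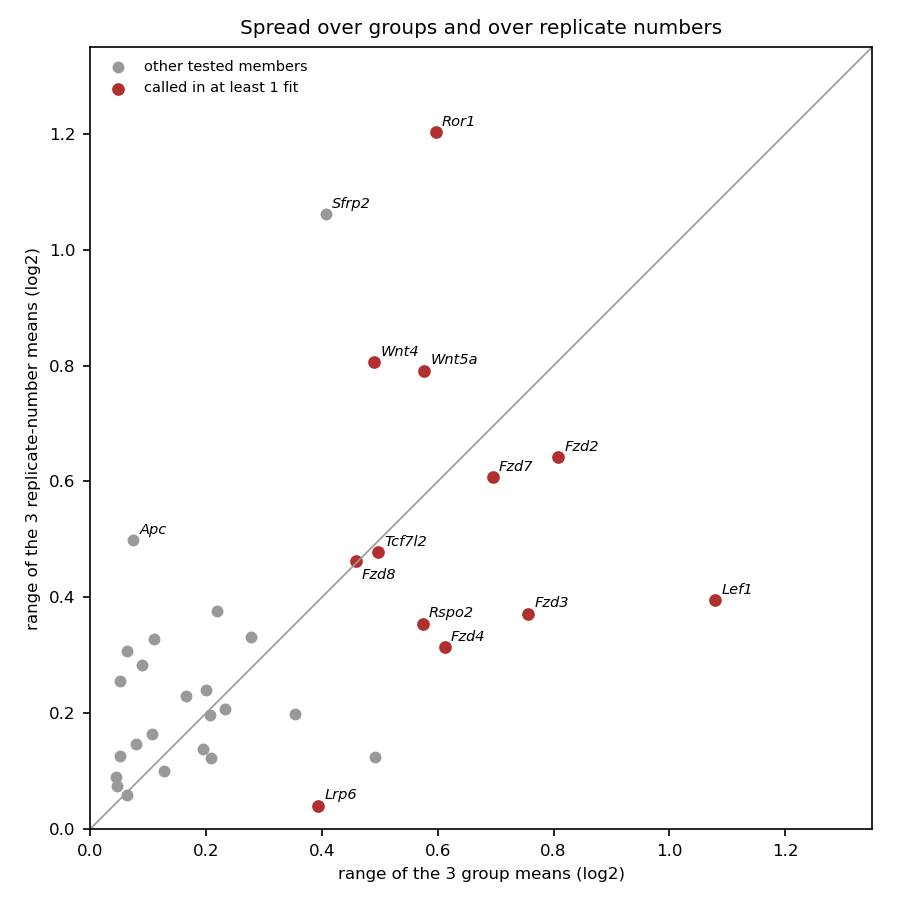
For each tested member, the range of the 3 group means (x axis, log2 units) against the range of the 3 replicate-number means (y axis, log2 units), with a line of equality; red points are members called in at least 1 comparison with vehicle. Ror1 and Sfrp2 lie far above the line and Lef1, Fzd3, Fzd4 and Lrp6 below it.

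The last comparison set CD24 siRNA against scrambled siRNA, both with IBMX/Dex. No array was labelled CD24 siRNA without IBMX/Dex. The comparison therefore gives a difference in level under IBMX/Dex and cannot show whether a response was altered. None of the 35 tested members differed between CD24 siRNA and scrambled siRNA in limma, with or without the block. No member had an unadjusted p under 0.05 in either fit either (the smallest was 0.258, and 0.135 with the block), where 0.238% of all genes did without the block and 1.73% with it. Differences ran from -0.19 (Fzd2) to 0.18 (Rspo2), with a median of -0.01 that matched the -0.01 of all genes, and the groups overlapped for every tested member, against 2.41% of all genes where they did not (0.879% higher and 1.54% lower).

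Fzd2 differed by 0.05, -0.20 and -0.41 in pairs 1 to 3, with a 95% interval of the group difference from -0.86 to 0.48. Rspo2 differed by 0.05, 0.16 and 0.34, with an interval from -0.21 to 0.58. Wnt5a, at -0.18 (interval -0.83 to 0.48, and -0.42 to 0.07 with the block), was lower with CD24 siRNA in all 3 pairs. The same sign in all 3 pairs held for 3 tested members in all. For the genes that passed against vehicle the intervals were -0.34 to 0.41 for Fzd3, -0.43 to 0.25 for Fzd4 and -0.53 to 0.41 for Lef1. The median interval of a tested member extended 0.34 log2 units to either side, and 0.25 with the block. Larger differences could go uncalled after adjustment: Cd24a itself, at -0.90 (limma unadjusted p = 0.0638, and 0.0118 with the block), had an adjusted p of 1 in both fits. A p above the threshold does not show that the 2 siRNA groups had equal levels, and 1 of the 3 CD24 siRNA arrays had not lost its target messenger RNA. Leaving that array out gave 0 members as well.

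**Figure D4:**
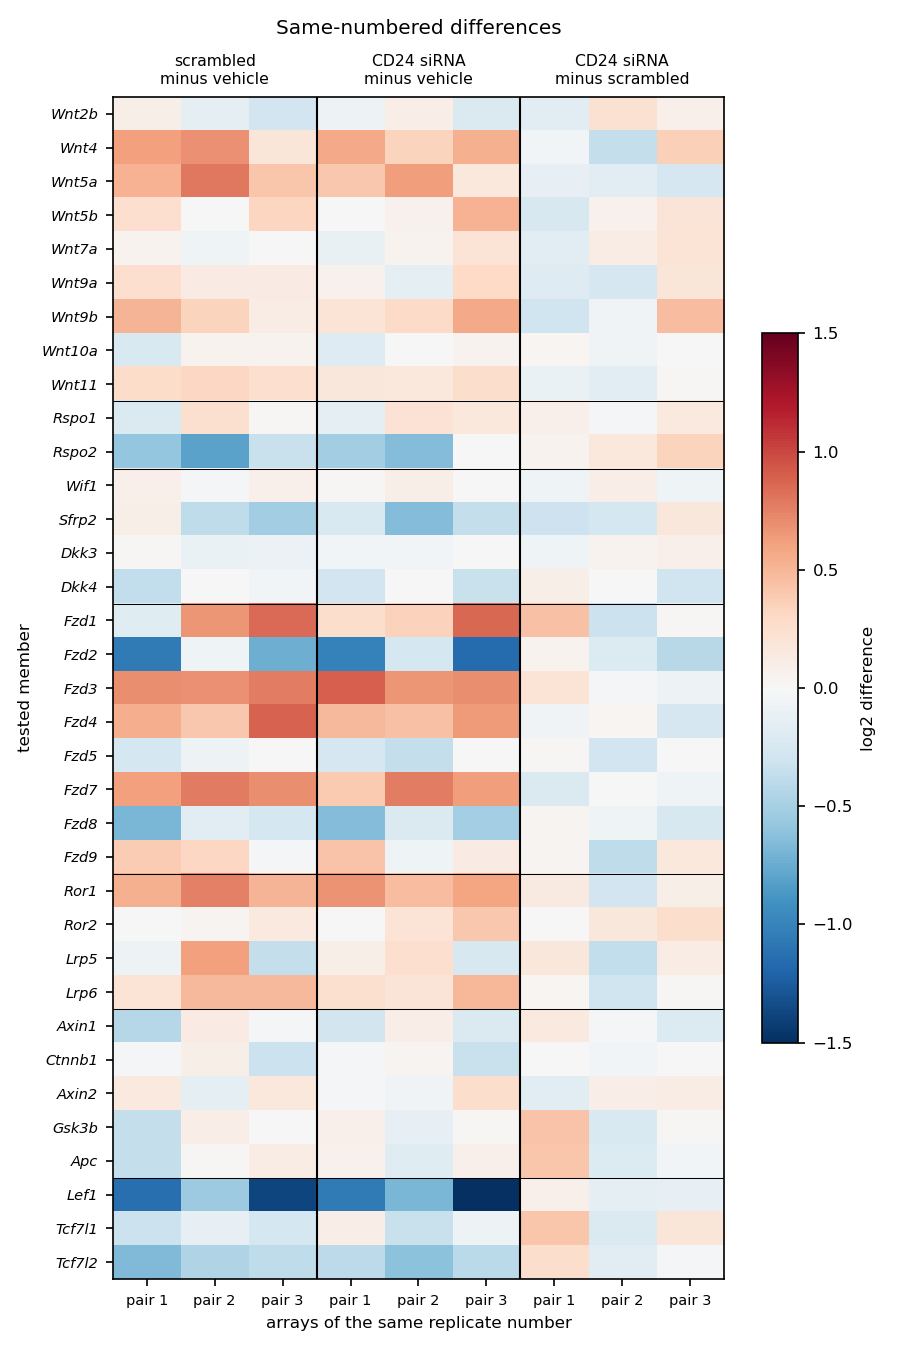
Log2 differences between arrays of the same replicate number (colour scale, red higher and blue lower) for the 35 tested members (rows, grouped by role) in pairs 1 to 3 of each comparison (columns). Fzd3, Fzd4, Fzd7 and Ror1 are red and Lef1 and Tcf7l2 blue in all 6 columns of differences from vehicle, and the 3 columns of CD24 siRNA minus scrambled siRNA are paler for those genes.

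Other genes of the pathway, listed apart from the members, were read from the same fits. Their list was drawn up with earlier results of these data known. Its shares beside all genes, and those of its parts such as the target genes, are therefore descriptive only. Of 69 listed genes 56 were tested, and with scrambled siRNA 5 rose and 1 fell (10.7%, beside 6.94% of all genes; with the block 10 rose and 2 fell, 21.4% beside 23.3%). With CD24 siRNA 4 rose and 1 fell (8.93%, beside 6.65%; with the block 7 and 3, 17.9% beside 22.4%), and between the siRNA groups none passed. Senp2, a SUMO protease reported to act on the Axin complex, rose 2.22-fold with scrambled siRNA and 1.87-fold with CD24 siRNA (limma adjusted p = 0.00342 and 0.00979). It passed in every fit that left out 1 array.

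In the non-canonical branch Mapk8, the gene of the kinase JNK1, rose 1.65-fold and 1.44-fold (adjusted p = 0.00499 and 0.0198). Nfatc1, a calcium-regulated transcription factor, rose 1.97-fold and 1.99-fold (adjusted p = 0.0166 and 0.0164). Without CD24 siRNA replicate 1, 2 or 3 Mapk8 was lost in that group's comparison (adjusted p up to 0.0733). Nfatc1 was lost there without CD24 siRNA replicate 1 (adjusted p = 0.0573) and with scrambled siRNA without scrambled replicate 1 or 3 (up to 0.0700).

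The Groucho-type corepressor genes, whose products repress through TCF factors, did not move as a group. Tle1 rose 1.91-fold with scrambled siRNA (limma adjusted p = 0.0337), while its 1.73-fold difference with CD24 siRNA passed with the block alone (adjusted p = 0.0591, and 0.00435 with it). Tle2 fell by 0.59 and 0.60 on the log2 scale (adjusted p = 0.0442 and 0.0415). Tle3, at 0.45 with scrambled siRNA, passed with the block alone (adjusted p = 0.0532, and 0.0210 with it) and did not pass with CD24 siRNA (0.22), and Tle4, at 0.34 and 0.27, passed in neither. These calls depended on single arrays: Tle1 passed in 3 of 9 and Tle2 in 1 and 2 of 9 fits that each left out 1 array (adjusted p up to 0.133).

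Among 8 tested target genes Id2, an inhibitor of helix-loop-helix factors, rose 8.30-fold and 8.04-fold (limma adjusted p = 0.0342 and 0.0368), with vehicle arrays at 9.95, 9.05 and 6.47 and IBMX/Dex arrays at 11.42 to 11.63. Vehicle replicate 3 was far below its partners, and without it the log2 difference fell from 3.05 to 2.04 with scrambled siRNA and from 3.01 to 2.00 with CD24 siRNA. Of 9 fits that each left out 1 array, the call held in 2 with scrambled siRNA (without vehicle replicate 1 or 3) and in 3 with CD24 siRNA (also without scrambled replicate 1), with adjusted p up to 0.116. With the block 4 of the 8 rose with scrambled siRNA (50%, beside 23.3% of all genes), namely Id2, Myc, Cd44 and Twist1, and 2 with CD24 siRNA (25%, beside 22.4%), Id2 and Myc. Myc, a growth-promoting transcription factor, was 2.18-fold higher with scrambled siRNA (limma adjusted p = 0.0629, and 0.00139 with the block) and 2.05-fold higher with CD24 siRNA (adjusted p = 0.0813, and 0.00219 with the block). The cyclin gene Ccnd1, Sp5, Jag1 and Ppard did not pass.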

How the data were processed

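Expression was measured on 9 single-colour oligonucleotide arrays, 3 in each of 3 groups, from 250 ng of total RNA. The authors deposited log2 values for 41345 probe sets, made with RMA and the oligo package per the submitters' processing notes; no version is given in the sources used here. RMA evens out array distributions and compresses differences of dim probe sets. The same deposited value on at least 2 arrays was found for 10 of the 35 tested members (28.6%, beside 26.7% of all genes). Ctnnb1, Wnt10a and Fzd5 were among these. Levels of different probe sets were not compared.

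Probe sets were named from the platform annotation: 23521 had 1 symbol, and 1814 with several and 16010 unnamed here were left out. All 57 members matched a mouse RefSeq table (GRCm38.p6) by gene identifier, with 0 symbols changed. The values were used as deposited. The filter (at least 3 of 9 values at or above the table median of 6.51) and the fits covered all genes: limma 3.58.1 in R 4.3.3, lmFit and eBayes, 1 mean per group over the 9 arrays, two-sided p, Benjamini-Hochberg adjustment over 12630 genes per comparison, threshold 0.05. The fits were tested on simulated data with known changes. There the fit without the block met independent noise only, whereas same-numbered arrays of these data deviated together.

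Same-numbered arrays were taken as pairs: their titles share the number, their descriptions share a code, and deviations from group means correlated at 0.377 to 0.732 between them and at most 0.116 otherwise. The alternative fit has that number as a block. Members called in any comparison in either fit are given in full, the next 12 by mean level with group means, and other pathway genes where called without the block. The array values of Sfrp2, and Axin2, Wnt9b, Tle3, Tle4, the target genes other than Id2, the members below the filter and the markers with values, were added outside that rule after their values were seen. Alternatives were the block, each array left out, 2 other filters, 2 scalings, probe set means, a robust intensity trend and fits of 2 groups only. The members and lists were chosen with earlier results of these data known. The comparisons with vehicle share its arrays.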

Additional observations from a re-analysis of the deposited data

How the results depend on the processing

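Directions of the 12 members called in either fit held in both comparisons with vehicle under every alternative run. The block, the other filters, the robust trend and the fits of 2 groups leave the difference of group means unchanged in this balanced design. They could therefore not change a direction. Only the left-out arrays, the scalings and the probe set means could. With the filter at the 75th percentile 6 of the 12 were tested. Each of the 5 member calls made without the block was lost on leaving out at least 1 array. With scrambled siRNA 3 members and 876 genes passed, against 11 and 2942 with the replicate block, and with CD24 siRNA 2 and 840, against 10 and 2831 with it. Leaving out 1 array gave 0 to 2 members (with the block 8 to 11) and 313 to 852 genes (1583 to 2924) with scrambled siRNA. With CD24 siRNA it gave 0 to 2 members (7 to 12) and 321 to 857 genes (1599 to 2647). With scrambled siRNA 1 member, Lef1, passed without a filter (57 members tested, 653 of 22180 genes passing). It was also the 1 member with a filter at the 75th percentile (8.07, 14 members tested, 777 of 7313 genes). The same held after centring on array medians (35 members, 710 of 12630 genes) and in a fit of 2 groups only (35 members, 389 of 12630 genes). With CD24 siRNA 1 member, Lef1, passed with the stricter filter (14 members, 744 of 7313 genes) and in the fit of 2 groups only (35 members, 461 of 12630 genes). Lef1 met the stricter filter through its 3 vehicle arrays alone, so its calls there are no support. Fzd3 and Fzd4 were not tested with the filter at 8.07, since their highest values were 7.88 and 7.59. The cause of the other lost calls was not tested. Between the siRNA groups 0 members and 0 genes passed under every alternative. There the differences of 10 members changed sign on leaving out 1 array in the fits without the block. With the block the sign held for Fzd2 (-0.36 to -0.047), Fzd7 (-0.16 to -0.017) and Fzd8 (-0.20 to -0.025). The range without the block was -0.40 to 0.023 for Fzd2, -0.086 to 0.18 for Fzd3, -0.23 to 0.053 for Fzd4, -0.23 to 0.093 for Fzd7 and -0.20 to 0.055 for Fzd8. For the others it was -0.23 to 0.13 for Lef1, -0.40 to 0.28 for Ror1, -0.17 to 0.17 for Tcf7l2, -0.36 to 0.18 for Wnt4 and -0.37 to 0.0032 for Wnt5a. Wnt4 changed sign after quantile normalization too (0.012). For 22 members the signal lay below the filter, and 3 arrays a group limit the precision of the rest.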
